A study of Mus musculus with 6 samples.

Results

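The genes described here lie near Klf3 on mouse chromosome 5, between 5 (Tlr1) and 22 (Pds5a) annotated genes from it. They were Tlr1, Tlr6, Fam114a1, Klhl5, Rfc1, Wdr19, Ugdh, Ube2k, Pds5a and Tbc1d1. They are a choice of genes near Klf3 and not every gene there: the measured genes Gm3716, Klb, Rpl9, Lias and Smim14 lie among them and are not included. A probe set, the group of oligos that reads 1 transcript on an Affymetrix array, was taken where its platform annotation held 1 of these symbols and no other, which gave 16 of the 45037 probe sets for 9 of the 10 genes, where the array measured 17097 genes in this way. Klhl5 had 0 probe sets of its own, since the 2 that name it also name other genes, and 1 further probe set naming Pds5a beside another gene was left out for the same reason.

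RNA came from eosinophils sorted from the stromal vascular fraction (SVF) of inguinal subcutaneous adipose tissue of 3 Klf3-/- and 3 WT mice, each measured on 1 GeneChip HT MG-430PM array. All were untreated FVB/NJ males aged 12 weeks and kept at 22 °C on chow, littermates of crosses between heterozygotes. The knockout was global, so Klf3 was disrupted in every tissue of the Klf3-/- mice and not in eosinophils alone. Sorting was on viability, CD45, CD11b, F4/80 and Siglec-F, all positive, together with a high side scatter.

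KLF3 is a zinc finger repressor that binds CACCC-type elements in DNA and recruits the corepressor CtBP. Genes that neighbour a disrupted locus are inherited together with it in a cross. The neighbours of Klf3 belong to different pathways. TLR1 and TLR6 are receptors that pair with TLR2 on myeloid cells to sense bacterial lipopeptides, RFC1 and PDS5A act on DNA in the nucleus, UGDH makes UDP-glucuronate for matrix polysaccharides, TBC1D1 is a GTPase-activating protein for Rab GTPases in glucose uptake, WDR19 belongs to the transport machinery of cilia, and UBE2K is a ubiquitin-conjugating enzyme.

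Deposited intensities were on a linear scale, and the array medians lay between 30.3 and 58.7, a 1.94-fold range. The fit therefore used log2 values brought to a common distribution by quantile normalisation, and both scales are given. The level at the 95th percentile of 44 olfactory receptor probe sets, 5.10 log2 units, served as background. Of 7 measured eosinophil markers 6 lay under that level (Epx, Prg2, Siglecf, Ccr3, Il5ra and Alox15), so "eosinophils" is used here only as the label of the sort. Macrophage, dendritic cell, stromal fibroblast, T cell, B cell and endothelial markers all lay above it. Stromal fibroblast markers had a log2 fold change above 0 in 11 of 12 genes, 4 of them at an unadjusted p under 0.05, and their summed normalised intensity ranged between 16061 and 26048 in Klf3-/- and between 10128 and 17207 in WT. Dendritic cell markers were below 0 in 8 of 9 genes, 2 of them at an unadjusted p under 0.05, with sums between 16473 and 21236 in Klf3-/- and between 21798 and 28207 in WT. Macrophage markers were above 0 in 10 of 11 genes and mast cell and basophil markers in 7 of 8, while B cell markers were below 0 in 5 of 5 (4 of 5 as deposited). Endothelial markers were below 0 in 7 of 8 genes (4 of 8 as deposited) and mural cell markers in 3 of 4, 1 of them at an unadjusted p under 0.05, with a median of −0.78. At an unadjusted limma p under 0.05, 1 macrophage and 1 neutrophil marker were also higher in Klf3-/- and 1 T cell marker was lower. Over the brightest probe sets of all genes, 44.8% had a log2 fold change above 0. At that p 3.61% of them were higher and 2.47% lower. No marker passed the adjusted threshold in limma. In a bulk sample, fewer cells of a type and less RNA per cell cannot be told apart.

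No flanking gene passed the test across all probe sets. In limma 0 of 16 probe sets had an adjusted p under 0.05, where the share over all 45037 probe sets was 0%. At an unadjusted p under 0.05, 2 probe sets were higher in Klf3-/- (3.10% of all probe sets were) and 1 was lower (2.39% of all were). Those 3 read Fam114a1 and Tlr6. In 5 probe sets every Klf3-/- array lay above every WT array, against 4.49% of all probe sets, and in 1 every Klf3-/- array lay below, against 6.51%. The 5 were those of Fam114a1, Ugdh and Pds5a and the dimmest of Ube2k. Some margins were small. The lowest Klf3-/- and highest WT arrays read 8.22 and 8.19 for Ugdh, 8.77 and 8.68 for Pds5a, and 3.76 and 3.72 for Ube2k. For the 2 Fam114a1 probe sets they read 7.69 and 7.16, and 5.77 and 5.33. On the values as deposited the counts without overlap were 2 above, the brighter Fam114a1 and the dimmer Wdr19 probe set, and 0 below. The 4.49% and 6.51% are shares after normalisation. The shares of all probe sets as deposited were not counted, so these counts are not read as a result about the genes. The median log2 fold change (Klf3-/- over WT) of the 16 probe sets was 0.18, and 9 were above 0, while over all probe sets it was −0.03. Taking only the brightest probe set of each of the 9 genes gave −0.17. The split of calls over all probe sets depended on scaling, with 1398 higher and 1077 lower after normalisation, and 1150 higher and 62 lower on the values as deposited, where the median log2 fold change was 0.13. Fold changes as deposited are to be read against that median.

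**Figure D1:**
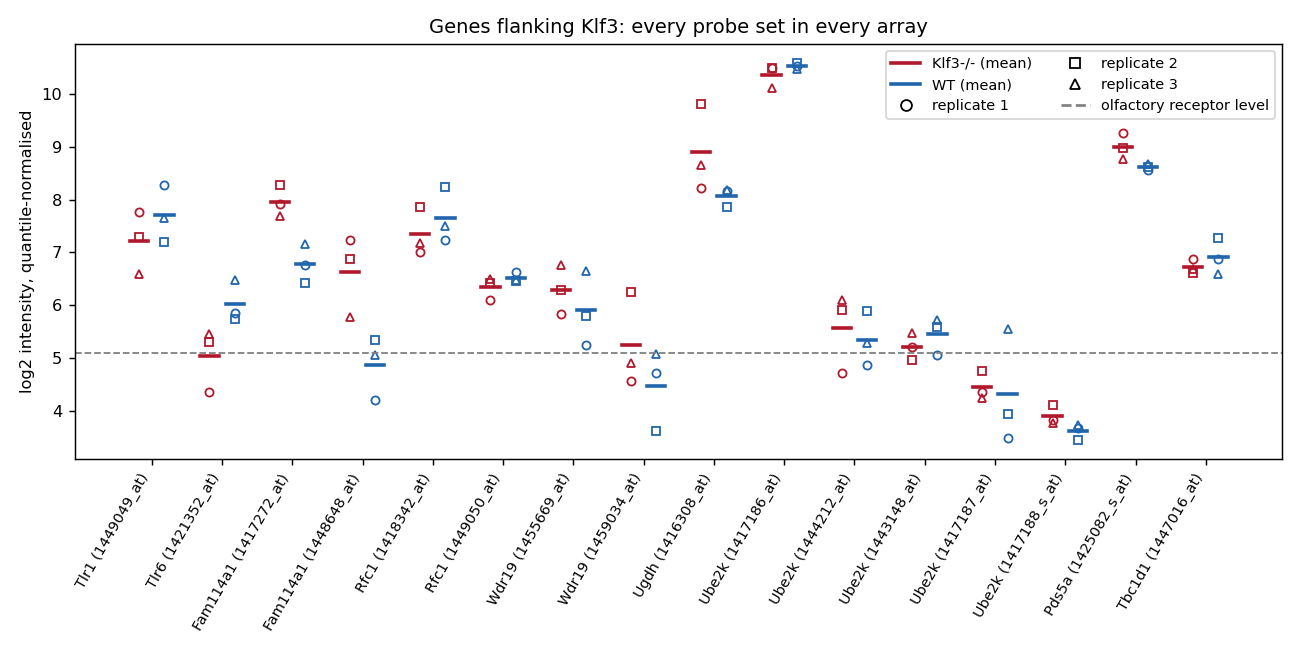
Normalised log2 intensity of the 16 probe sets in the 3 Klf3-/- (red) and 3 WT (blue) arrays, with marker shapes for replicate numbers, horizontal bars for group means and a dashed line at the olfactory receptor level of 5.10. The Fam114a1 probe sets and that of Tlr6 show separate groups in opposite directions, and heights cannot be compared from one probe set to another.

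Fam114a1 encodes a little characterised protein first described in the nervous system. Its 2 probe sets had the largest log2 fold changes of the 16. Its brighter probe set gave deposited intensities of 267, 484 and 154 in Klf3-/- mice 1 to 3, against 92.8, 118 and 90.4 in WT mice 1 to 3. The lowest Klf3-/- mouse thus lay above the highest WT mouse before any normalisation. On the normalised log2 scale the probe set read 7.97 ± 0.30 in Klf3-/- arrays, against 6.78 ± 0.37 in WT arrays (SD, n = 3 in each). The log2 fold change was 1.19, a fold of 2.28 (95% interval of the log2 value 0.57 to 1.80, limma p = 0.00247, exact two-sided permutation p = 0.1, adjusted p = 0.736).

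The dimmer Fam114a1 probe set is annotated to the same gene and also read higher in Klf3-/-, without passing after adjustment. It gave 167, 178 and 44.3 in Klf3-/- mice, against 16.2, 53.1 and 24.2 in WT mice, so Klf3-/- mouse 3 lay below WT mouse 2 as deposited. After normalisation it read 6.62 ± 0.76 in Klf3-/- arrays, against 4.86 ± 0.59 in WT arrays (SD, n = 3 in each), without overlap. All 3 Klf3-/- arrays but 1 of 3 WT arrays lay above the olfactory receptor level. The log2 fold change was 1.76 (95% interval 0.71 to 2.81, limma p = 0.00522, exact permutation p = 0.1, adjusted p = 0.781). Set against the WT mouse of the same number, Klf3-/- mice 1 to 3 were higher by 1.17, 1.86 and 0.53 log2 units for the brighter probe set and by 3.03, 1.54 and 0.72 for the dimmer. Leaving out any 1 array kept the log2 fold change between 0.99 and 1.40 for the brighter and between 1.44 and 2.22 for the dimmer probe set. The summed stromal fibroblast markers of these arrays were 16061, 26048 and 18006 in Klf3-/- and 10128, 12802 and 17207 in WT, and their part in the Fam114a1 result was not tested.

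Tlr6, the co-receptor of TLR2 for diacylated lipopeptides, read lower in Klf3-/-, without passing after adjustment. Its probe set gave 21.6, 53.1 and 36.2 in Klf3-/- mice 1 to 3, against 49.6, 71.0 and 58.6 in WT mice 1 to 3. Each Klf3-/- value was the lower of its replicate, but Klf3-/- mouse 2 lay above WT mouse 1, so the groups overlapped as deposited. After normalisation they did not, with 5.03 ± 0.59 in Klf3-/- arrays, against 6.02 ± 0.41 in WT arrays (SD, n = 3 in each). The log2 fold change was −0.99 (95% interval −1.81 to −0.17, limma p = 0.0245, exact permutation p = 0.1, adjusted p = 0.868). The unadjusted call depended on which arrays were kept and on the scale. Without Klf3-/- mouse 1, whose value was the lowest, the log2 fold change was −0.65, without WT mouse 3, whose normalised value was the highest, it was −0.77, and on the values as deposited it was also −0.77, none of them with an unadjusted p under 0.05. The signal was dim, 2 of 3 Klf3-/- arrays and 3 of 3 WT arrays lying above the olfactory receptor level. The summed dendritic cell markers were lower in Klf3-/- without overlap, at 21236, 16473 and 18883 in mice 1 to 3, against 22100, 28207 and 21798 in WT mice 1 to 3. Within each genotype the array with the lowest normalised Tlr6 value had the highest sum (Klf3-/- mouse 1 at 4.36 and WT mouse 2 at 5.73). The part of these markers in the Tlr6 result was not tested.

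Tlr1, the co-receptor for triacylated lipopeptides, gave 239.8, 242 and 75.0 in Klf3-/- mice, against 265, 210.4 and 125 in WT mice. Klf3-/- mouse 3 was the lowest of all, and the genotypes otherwise overlapped. The normalised means were 7.22 ± 0.59 in Klf3-/- arrays, against 7.71 ± 0.54 in WT arrays (SD, n = 3 in each). The log2 ratio of Klf3-/- over WT was −0.49 (95% interval −1.38 to 0.41, adjusted p = 0.949 in limma). Of 12 measured partners of these receptors and of their signalling chain 0 passed in limma over all probe sets, with 7 above 0 and 5 below. The LPS-binding protein Lbp had a log2 ratio of 1.32 (limma, adjusted p = 0.663) and Irak3, an inhibitory kinase of the chain, had 0.56 (adjusted p = 0.910 in limma).

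**Figure D2:**
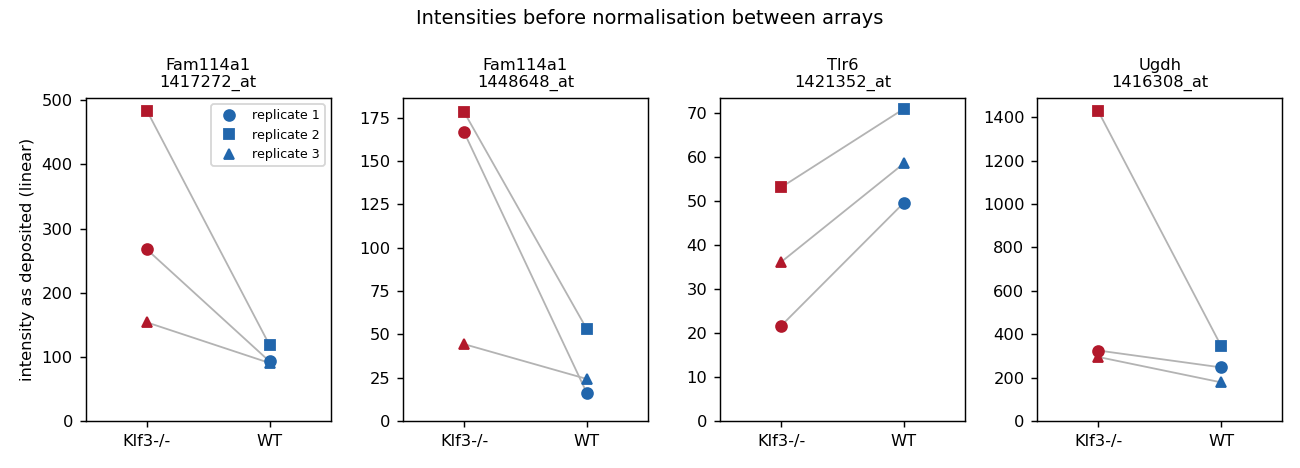
Deposited linear intensities of both Fam114a1 probe sets and of the Tlr6 and Ugdh probe sets, Klf3-/- on the left of each panel and WT on the right, 1 point per mouse, with grey lines joining arrays of the same replicate number. Every Fam114a1 line is higher at its Klf3-/- end and every Tlr6 line is lower there, and 1 Klf3-/- mouse at 1426 sets the Ugdh difference.

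The RefSeq gene table of assembly GRCm38.p6 lists Tlr1, Tlr6 and Fam114a1 as the 3 nearest measured genes of Klf3 towards higher coordinates. Tlr6 and Fam114a1 run on opposite strands, and their gene spans overlap in that table. The RefSeq starts used for the upstream sequences do not account for this overlap. From them Tlr6 runs towards lower coordinates, and Fam114a1 starts at a higher coordinate and runs towards higher ones. Where the spans overlap was not traced. Upstream sequences of the genes at an unadjusted p under 0.05 are shown because KLF3 binds CACCC boxes. Each is the 250 bases before a RefSeq start, written 5′ to 3′ on the strand of the gene, with CACCC, or GGGTG where the match is on the opposite strand, in capitals.
Fam114a1 (GRCm38.p6, chr5:64969825-64970074, + strand): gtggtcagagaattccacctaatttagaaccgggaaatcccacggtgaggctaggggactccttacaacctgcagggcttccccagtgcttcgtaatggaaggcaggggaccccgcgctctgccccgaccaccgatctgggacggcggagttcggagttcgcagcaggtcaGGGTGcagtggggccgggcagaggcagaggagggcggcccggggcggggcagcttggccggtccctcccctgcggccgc
Tlr6, downstream start (chr5:64959167-64959416, − strand): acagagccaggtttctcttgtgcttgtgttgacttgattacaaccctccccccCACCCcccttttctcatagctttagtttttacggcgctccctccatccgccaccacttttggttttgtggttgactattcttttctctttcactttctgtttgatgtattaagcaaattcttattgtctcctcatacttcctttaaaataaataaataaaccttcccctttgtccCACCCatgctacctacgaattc
Tlr6, upstream start (chr5:64960049-64960298, − strand): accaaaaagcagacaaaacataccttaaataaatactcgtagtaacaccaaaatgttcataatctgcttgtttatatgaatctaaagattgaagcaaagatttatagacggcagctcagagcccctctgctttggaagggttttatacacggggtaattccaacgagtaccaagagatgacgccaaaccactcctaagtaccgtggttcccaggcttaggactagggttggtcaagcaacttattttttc
The Fam114a1 window held 1 match, 79 bases before the start on the opposite strand. The downstream Tlr6 window held 2, at 197 and 22 bases before the start, and the upstream one held 0. Over the 14 windows found for the 10 genes, 10 held at least 1 match, against 52.0% of 32851 windows of the same length in the table. By number, 4 held 0, 6 held 1, 3 held 2 and 1, that of Wdr19, held 3. A match is a run of letters and not a binding site, and these counts were not related to the expression values.

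Rfc1 and Pds5a act on DNA. Rfc1, the large subunit of the clamp loader that places PCNA on DNA, was read by 2 probe sets. The brighter gave 143, 362 and 110.4 in Klf3-/- mice and 129, 462 and 113 in WT mice, with the mouse numbered 2 the highest in both genotypes. Its log2 fold change was −0.30 (95% interval −1.09 to 0.49, adjusted p = 0.958 in limma), and that of the dimmer was −0.18 (−0.64 to 0.27, adjusted p = 0.954). Of 11 measured genes in a list of the clamp loader, its clamp and related genes, 11 had log2 fold changes below 0 after normalisation. Their median was −0.16, against −0.04 over the brightest probe sets of all genes. As deposited 5 of 11 were below 0 (median 0.02), and 0 passed in limma. Rfc2 had a log2 fold change of −0.45 and Chtf18, which forms an alternative clamp loader, −0.67 (adjusted p = 0.904 and 0.910 in limma), the second falling in size to −0.30 without WT mouse 2. On the values as deposited the sign of the dimmer Rfc1 probe set turned, to 0.05.

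Pds5a, a regulator of the cohesin ring, gave 661, 796 and 316 in Klf3-/- mice and 326, 610.5 and 249 in WT mice. The groups overlapped there and did not after normalisation, with 9.01 ± 0.25 in Klf3-/- arrays, against 8.62 ± 0.05 in WT arrays (SD, n = 3 in each). The log2 fold change was 0.38 (95% interval −0.08 to 0.84, adjusted p = 0.910 in limma). The cohesin list had a median of −0.12 after normalisation and 0.11 as deposited, with 4 and 7 of 11 genes above 0, and 0 passed. Its members with the smallest p were the release factor Wapl (−0.37, adjusted p = 0.910 in limma) and the loader Nipbl (−0.32, adjusted p = 0.925 in limma).

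Ugdh, the dehydrogenase that turns UDP-glucose into UDP-glucuronate, gave 324, 1426 and 295 in Klf3-/- mice, against 247, 346 and 178 in WT mice. Klf3-/- mouse 2 stood far above the rest, and the other Klf3-/- mice lay within the WT range. After normalisation the levels were 8.90 ± 0.83 in Klf3-/- arrays, against 8.07 ± 0.19 in WT arrays (SD, n = 3 in each). The log2 ratio of Klf3-/- over WT was 0.82 (95% interval −0.12 to 1.77, adjusted p = 0.910 in limma). Without Klf3-/- mouse 2 the log2 fold change was 0.36. That array also had the highest sums of stromal fibroblast markers (26048) and of mast cell and basophil markers (7640, against 3636 in WT mouse 2, the next highest). Whether either had a part in the Ugdh value was not tested. Of 11 measured genes that make UDP-glucose or use UDP-glucuronate 7 were above 0 and 0 passed. Ugp2, which makes UDP-glucose, had a log2 fold change of 0.85 and the heparan sulphate polymerase subunit Ext1 had 0.64 (adjusted p = 0.663 and 0.862 in limma). In this list 2 genes lay above and 1 below without overlap between genotypes, where 4.84% and 6.55% of all genes did.

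Tbc1d1 was the only one of the genes listed here on the side of lower coordinates. It gave 129.7, 147 and 79.5 in Klf3-/- mice and 101, 225 and 62.3 in WT mice, so the genotypes overlapped. Its log2 fold change was −0.19 (95% interval −0.73 to 0.35, adjusted p = 0.960 in limma) and 0.03 on the values as deposited. In the list of its relative Tbc1d4, Rab GTPases, AMPK and AKT subunits and Slc2a4, 5 of 10 were above 0 after normalisation (median 0.04) and 8 of 10 as deposited (median 0.25), and 0 passed. Prkaa1, an AMPK catalytic subunit, had a log2 fold change of 0.83 and Slc2a4, the insulin-regulated glucose transporter, had −0.34 (adjusted p = 0.910 each in limma), both with means under the olfactory receptor level. Prkaa1 was at 0.37 on the log2 scale without Klf3-/- mouse 2.

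Wdr19, a subunit of the complex for retrograde transport in cilia, was read by 2 probe sets. The brighter gave 62.5, 114 and 83.8 in Klf3-/- mice and 32.6, 74.9 and 65.0 in WT mice, a log2 fold change of 0.39 (95% interval −0.55 to 1.33, adjusted p = 0.954 in limma). Its Klf3-/- array was the higher in each replicate, by 0.58, 0.48 and 0.11 log2 units, while the genotypes overlapped, and the log2 fold change was 0.064 without WT mouse 1 and 0.79 without WT mouse 3. The dimmer gave 25.1, 113 and 25.2 in Klf3-/- mice and 22.6, 16.4 and 24.7 in WT mice, where Klf3-/- mouse 2 stood apart, the other Klf3-/- mice exceeded the highest WT mouse by less than 1 unit of intensity, and the array of mouse 2 alone lay above the olfactory receptor level. Its log2 fold change was 0.78 and 0.27 without that mouse. Of 7 measured genes of retrograde transport 6 were above 0 with a median of 0.11 and 0 passed. Ift43 had a log2 fold change of 1.34 and Ift140 −0.63 (adjusted p = 0.910 and 0.914 in limma), but 0.71 without WT mouse 3 and −0.27 without Klf3-/- mouse 3.

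Ube2k, a conjugating enzyme that extends ubiquitin chains, was read by 5 probe sets, 3 with log2 fold changes above 0 and 2 below. The brightest gave 1526, 2144 and 839.5 in Klf3-/- mice and 1289, 2389 and 883 in WT mice, so the genotypes overlapped. After normalisation it read 10.37 ± 0.21 in Klf3-/- arrays, against 10.54 ± 0.05 in WT arrays (SD, n = 3 in each). The log2 ratio of Klf3-/- over WT was −0.17 (95% interval −0.61 to 0.27, adjusted p = 0.958 in limma). The other 4 had log2 fold changes between −0.25 and 0.28. The dimmest, at 3.75 log2 units over all arrays, lay under the olfactory receptor level in all 6 arrays, although its groups did not overlap. Of 13 measured ubiquitin E1 and E2 genes 4 were above 0 after normalisation (median −0.08) and 12 as deposited (median 0.15), and 0 passed. Ube2e1 had a log2 fold change of 0.22 and Ube2z −0.22 (adjusted p = 0.954 each in limma). Klhl5, a BTB-kelch gene with no probe set of its own, was not measured by this rule. Of 8 measured cullin 3 and KLHL genes 5 were above 0 and 0 passed, Klhl13 with a log2 fold change of 1.72 and Klhl22 with 0.71 (adjusted p = 0.736 and 0.888 in limma), Klhl22 at 0.40 without Klf3-/- mouse 2.

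**Figure D3:**
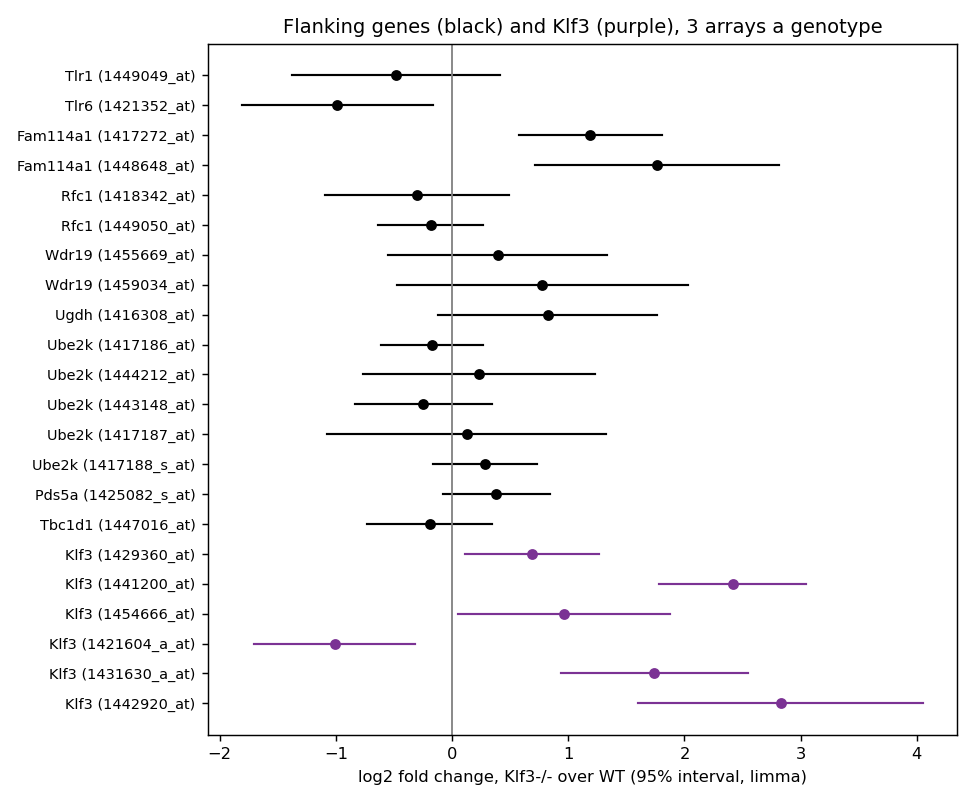
Log2 fold change, Klf3-/- over WT, of the 16 flanking probe sets (black) and the 6 Klf3 probe sets (purple), with 95% intervals of the limma fit on 3 arrays a genotype. The intervals of 13 flanking probe sets span 0, while those of both Fam114a1 probe sets lie above 0 and that of Tlr6 below.

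Klf3 itself was read by 6 probe sets, 5 with log2 fold changes above 0 and 1 below, ranging between −1.01 and 2.83. Their 95% intervals did not span 0 in the fit without a block, but 1 of them, with a log2 fold change of 0.96, no longer had an unadjusted p under 0.05 with the replicate number as a block or by the analysis of variance, and neither did 2 of them, that one and the one at 0.69, with array weights. As deposited, the ones at 0.69 and −1.01 had an unadjusted limma p of 0.0717 and 0.0799. Leaving out 1 array took those at 0.69 and 0.96 to a limma p of up to 0.0744 and 0.127. Which part of Klf3 is disrupted, and which part each probe set reads, could not be taken from the sources, so they do not check the genotype. For comparison, the median size of the log2 fold change, whatever its sign, was 1.38 over the Klf3 probe sets, 0.34 over the 16 flanking probe sets and 0.19 over all probe sets. These sets differ in signal, with median levels of 8.20, 6.26 and 5.41 log2 units. Of the 16 flanking probe sets 13 lay above the olfactory receptor level, against 24912 of all 45037, and 2 of the 16 read Fam114a1. A comparison at matched level was not made.

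A wider stretch was set around these genes with the 30 nearest measured genes on each side of Klf3 in the RefSeq gene table. In order from Klf3, Tbc1d1 was the 2nd measured gene towards lower coordinates, Tlr1, Tlr6, Fam114a1, Wdr19 and Rfc1 were the 1st to 5th towards higher coordinates, and Ugdh, Ube2k and Pds5a were the 9th, 11th and 12th. Each gene was represented by its brightest probe set. At an unadjusted limma p under 0.05, 5 of the 60 genes were higher in Klf3-/- and 2 were lower, where 3.61% of the 17097 genes were higher and 2.47% lower. In 7 every Klf3-/- array lay above every WT array and in 4 below, against 4.84% and 6.55% of all genes. No gene passed after adjustment.

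Among the 10 nearest on each side, 5 had an unadjusted limma p under 0.05 (Fam114a1, Rell1 and Pgm2 above, Tlr6 and the lncRNA Gm3716 below). Among the next 10 on each side 1 was higher, and among the last 10 on each side 1 was higher. Over all genes 3.61% were higher and 2.47% lower at that p. Fam114a1 and Tlr6 are among the members, which were chosen with earlier results known, and a change with distance from Klf3 was not tested. Rell1, a relative of the TNF receptor RELT, was the 5th measured gene towards lower coordinates. Rell1 read 9.16 ± 0.39 in Klf3-/- arrays, against 8.21 ± 0.16 in WT arrays (SD, n = 3 in each). The log2 ratio of Klf3-/- over WT was 0.95 (adjusted p = 0.809 in limma). Pi4k2b, a phosphatidylinositol kinase and the 21st measured gene on that side, had a log2 ratio of 0.91 (adjusted p = 0.740 in limma), and its values were 7.15 ± 0.33 in Klf3-/- arrays, against 6.24 ± 0.09 in WT arrays (SD, n = 3 in each). Gm3716, the nearest measured gene on that side, had a log2 ratio of −0.57 (adjusted p = 0.901 in limma) and the lncRNA 4932441J04Rik −0.34 (adjusted p = 0.910 in limma), both with mean levels under the olfactory receptor level. Tbc1d1, whose genotypes overlapped, lies between Gm3716 and Pgm2, the 3rd gene on that side with a log2 fold change of 0.80 (adjusted p = 0.868 in limma). Tlr1, whose genotypes also overlapped, lies between Klf3 and Tlr6.

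**Figure D4:**
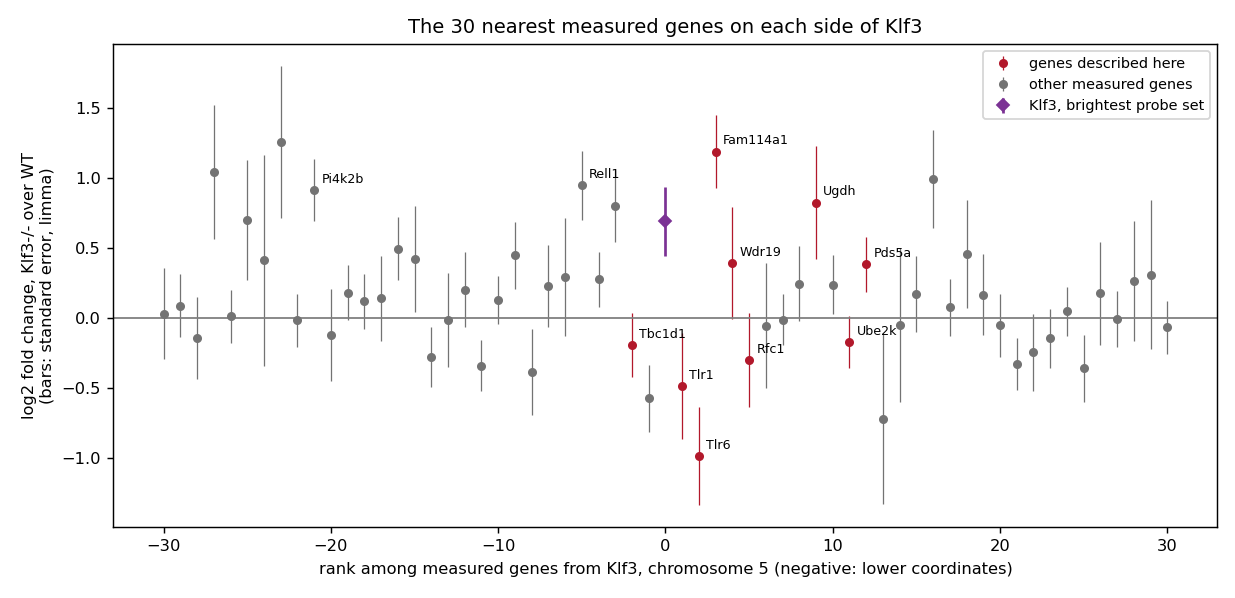
Log2 fold change, Klf3-/- over WT, of the brightest probe set of the 30 nearest measured genes on each side of Klf3, by rank of the gene from Klf3, with standard errors from limma. The flanking genes described here are red, other genes grey and Klf3 purple, and Fam114a1 at 1.19 and Tlr6 at −0.99 are neighbours on the same side.

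The genes whose profile over the 6 arrays was most like that of Fam114a1 were sought among 11114 genes with a mean above the olfactory receptor level. Likeness was the root mean square difference of log2 values, each gene centred on its own mean. The closest were the zinc finger repressor Hic1 (0.09 log2 units), the KLF family member Klf10 (0.13) and Dlc1 (0.15). Klf3-/- over WT, they had 1.15, 1.28 and 1.10 on the log2 scale (adjusted p = 0.742, 0.663 and 0.862 in limma). These are descriptions over 6 arrays that share the same difference between genotypes.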

How the data were processed

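Per the labels and the study's methods, labelled RNA was prepared with a 3′ IVT Pico Kit. Partek Genomics Suite was the authors' software, and a legend names RMA. The deposited values are linear intensities, 1 column per mouse. No source used here gives the RMA steps, and array medians differed.

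Log2 values were quantile-normalised between arrays and fitted with limma 3.58.1 (R 4.3.3; lmFit, eBayes) with genotype as the term. Benjamini-Hochberg adjustment ran over all 45037 probe sets at 0.05. The methods name a two-way ANOVA whose second factor is not stated. The fit was tested on simulated data. Symbols came from the platform annotation (28898 probe sets with 1 symbol, 551 with several, 15588 with none), gene order and upstream sequences from RefSeq tables of GRCm38.p6. Members and lists were chosen with earlier results of these data known.

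The labels call the mice litter-matched, and deviations from the genotype means correlated within replicate numbers 1 to 3 (r = 0.17, 0.23 and 0.21), so a fit with the number as a block was an alternative. Named were all members, Klf3, of the wider stretch the 3 genes of smallest p in each direction (Pgm2 was named after its values were seen), of each partner list the 2 of smallest p, and the 3 genes most like the member probe set of smallest p. With 3 arrays a genotype the smallest exact two-sided permutation p is 0.1, which the probe sets without overlap reached. The number of arrays limits the precision.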

Additional observations from a re-analysis of the deposited data

How the results depend on the processing

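No flanking probe set passed an adjusted p under 0.05 under any of the 14 alternatives run. On the values as deposited 0 probe sets were lower at an unadjusted p under 0.05, 2 were above and 0 below without overlap, and the log2 fold changes of Rfc1 (dimmer probe set), Ube2k (brightest probe set) and Tbc1d1 turned to 0.054, 0.0049 and 0.031. Centring on array medians gave 3 above without overlap. The brightest probe set per gene gave 1 higher at an unadjusted p under 0.05, 3 above without overlap and a median log2 fold change of −0.17, and probe sets above the olfactory receptor level also gave −0.17. The analysis of variance gave 0 lower. Leaving out 1 array at a time gave 0 to 1 lower, 1 to 3 below without overlap and medians of −0.067 to 0.27. The count lower was 0 without Klf3-/- replicate 1 or WT replicate 3, and the median was negative without WT replicate 1. Leaving out 1 array gave log2 fold changes of −0.032 to 0.66 and −0.30 to 0.75 for 2 dimmer Ube2k probe sets and −0.36 to 0.0013 for Ube2z. For the brightest probe sets of Tlr1, Rfc1 and Tbc1d1 it gave −0.76 to −0.17, −0.55 to −0.013 and −0.36 to −0.0090. With the replicate block 2 flanking probe sets were higher and 1 lower, as without it, and 9 genes of the wider stretch were called against 7. Calls over all probe sets also rose with the block, to 1734 higher and 1478 lower. The count in the wider stretch ran from 5 without WT replicate 1 to 10 with array weights, and was 6 by the analysis of variance. Over all probe sets 1398 were higher and 1077 lower, against 1150 and 62 as deposited, 900 and 1340 by the analysis of variance, and, over fewer features tested, 946 and 571 above the olfactory receptor level and 618 and 424 with 1 probe set per gene. The causes were not tested.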
